A study of Rattus norvegicus with 13 samples.

Results

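Adipose progenitors are the fibroblast-like cells of fat from which new adipocytes form, and 8 genes that mark them or the matrix they make were followed in rat fat: Pdgfra, Dpp4, Pi16, Cd34, Dcn, Lum, Thy1 and Fap. They were found by their symbols in the platform annotation. Each symbol had 1 probe, so no choice between probes was needed, and the 8 genes stand among 14506 genes that were tested. The fat came from 13 female Sprague Dawley rats, an outbred strain, with 1 array per animal. In 6 daughters the father had eaten high-fat pellets (43% as fat), and in 7 control daughters the father had eaten standard chow (9% as fat). Fathers of both groups were mated at 15 weeks of age with chow-fed females, and all daughters ate chow from weaning at 3 weeks until fat was taken at 14 weeks. The depot is not named. Shared fathers or litters are not given either, and p-values that treat the animals as independent may be too small if some are sisters. The comparison asks whether the father's diet is followed by a different level of stromal genes in the fat of daughters that never ate it.

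In fat, progenitors lie in the stroma around vessels and between lobules. PDGF receptor alpha (Pdgfra), the receptor through which PDGF ligands drive growth of mesenchymal cells, is their general marker. In mouse fat, Dpp4 and Pi16 mark a less committed progenitor of the connective tissue sheath that gives rise to preadipocytes. Cd34 is a surface sialomucin of progenitors and of endothelium, and Thy1 a GPI-anchored surface glycoprotein of fibroblasts that is also found on nerve cells. Decorin (Dcn) and lumican (Lum) are small leucine-rich proteoglycans that bind collagen fibrils. Fap is a membrane serine protease of activated fibroblasts and the closest relative of the dipeptidyl peptidase Dpp4, and Pi16 is a secreted or membrane-bound protein of the CAP family.

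The tissue read as fat. Adiponectin (Adipoq) lay between 13.64 and 13.96 in high-fat and between 13.72 and 13.89 in control daughters, on the log2 scale of the array, and the lipid droplet coat gene Plin1 between 12.24 and 12.66 in high-fat and between 12.22 and 12.37 in control daughters. Some pieces held other tissue. The mean of 12 skeletal muscle genes ran from 7.34 to 11.71 in high-fat and from 7.34 to 12.03 in control daughters, and 4 arrays stood apart as high, high-fat 619 and 629 and control 662 and 664. Array medians lay between 7.66 and 7.72. The standard deviation of the values of an array, a measure of spread, ran from 1.78 to 1.96, and was smallest in control 658, control 631 and high-fat 660. Whether it follows array technique or the make-up of the tissue was not tested. Daughters are named by the numbers in their labels, which fall into 619 to 631 (4 high-fat, 3 control) and 656 to 664 (2 high-fat, 4 control), and the meaning of the ranges is not given.

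Promoter sequence was available for 6 of the 8 genes (RefSeq, build GRCr8), and 4 are shown because their genes form the pairs described further on: Dpp4 and Pi16, the pair of progenitor markers, Fap, a chromosomal neighbour of Dpp4, and Lum, which lies next to Dcn. Each run is the 250 bases before the annotated gene start, 5′ to 3′ on the gene's strand. Capitals mark every match, on either strand, to 5 motifs that were searched: the CCAAT box (CCAAT), the GC box (GGGCGG), the TATA box (TATAAA), the AP-1 site (TGANTCA) and the E-box (CANNTG).
Dpp4 (chr3:67452423-67452672, minus strand): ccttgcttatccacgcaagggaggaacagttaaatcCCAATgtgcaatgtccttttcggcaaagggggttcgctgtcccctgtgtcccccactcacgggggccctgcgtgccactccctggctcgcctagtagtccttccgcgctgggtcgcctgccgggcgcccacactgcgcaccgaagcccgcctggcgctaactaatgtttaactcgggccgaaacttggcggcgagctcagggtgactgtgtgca
Pi16 (chr20:7377703-7377952, plus strand): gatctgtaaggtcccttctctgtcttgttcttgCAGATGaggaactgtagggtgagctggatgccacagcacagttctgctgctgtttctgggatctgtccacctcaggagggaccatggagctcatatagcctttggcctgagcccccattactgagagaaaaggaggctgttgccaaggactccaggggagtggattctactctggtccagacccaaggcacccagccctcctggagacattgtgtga
Fap (chr3:67616092-67616341, minus strand): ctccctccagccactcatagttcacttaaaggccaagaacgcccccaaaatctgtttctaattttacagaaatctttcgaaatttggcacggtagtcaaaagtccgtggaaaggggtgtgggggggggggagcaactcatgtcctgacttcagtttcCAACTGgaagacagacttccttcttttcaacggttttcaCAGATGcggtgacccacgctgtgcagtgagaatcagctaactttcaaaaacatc
Lum (chr7:34245456-34245705, plus strand): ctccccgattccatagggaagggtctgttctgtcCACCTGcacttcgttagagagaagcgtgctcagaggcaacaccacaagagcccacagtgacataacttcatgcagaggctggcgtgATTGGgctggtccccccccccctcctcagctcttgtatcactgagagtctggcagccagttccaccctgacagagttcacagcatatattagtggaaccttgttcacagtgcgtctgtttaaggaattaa
The Dpp4 window held CCAAT at position -214 from the start and no E-box, the Pi16 window 1 E-box, the Fap window 2 E-boxes, and the Lum window 1 CCAAT match and 1 E-box. None of these 4 windows held TATAAA. Among 27457 promoter windows of the same length, 34.3% held CCAAT and 65.2% an E-box, so these matches are common, and a match is a run of letters and not a shown binding site. GC content was 62.4% in the Dpp4 window and 47.2% in that of Fap, with a median of 52% over all windows.

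None of the 8 genes differed between daughters of high-fat and of control fathers at an adjusted p of 0.05 in limma, a linear model fitted over all genes with Benjamini-Hochberg adjustment. The share of all genes that passed was 0%. At an unadjusted p under 0.05 limma gave 1 of the 8, Fap, against 7.96% of all genes, so a count of 1 in 8 is close to that background. The groups overlapped for each of the 8, and 0.0827% of all genes had groups that did not overlap. Of the 8 genes 4 had a higher mean in high-fat daughters (Fap, Pi16, Pdgfra and Thy1) and 4 a lower mean (Lum, Dcn, Dpp4 and Cd34). Over all genes 58.0% had a higher mean. All 8 lay above the middle of the mean levels, where 15.6% of genes had a lower mean. The median difference was 0.02 over the 8 and 0.03 over all genes. In bulk fat, fewer cells of a type and less RNA per cell cannot be told apart.

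**Figure D1:**
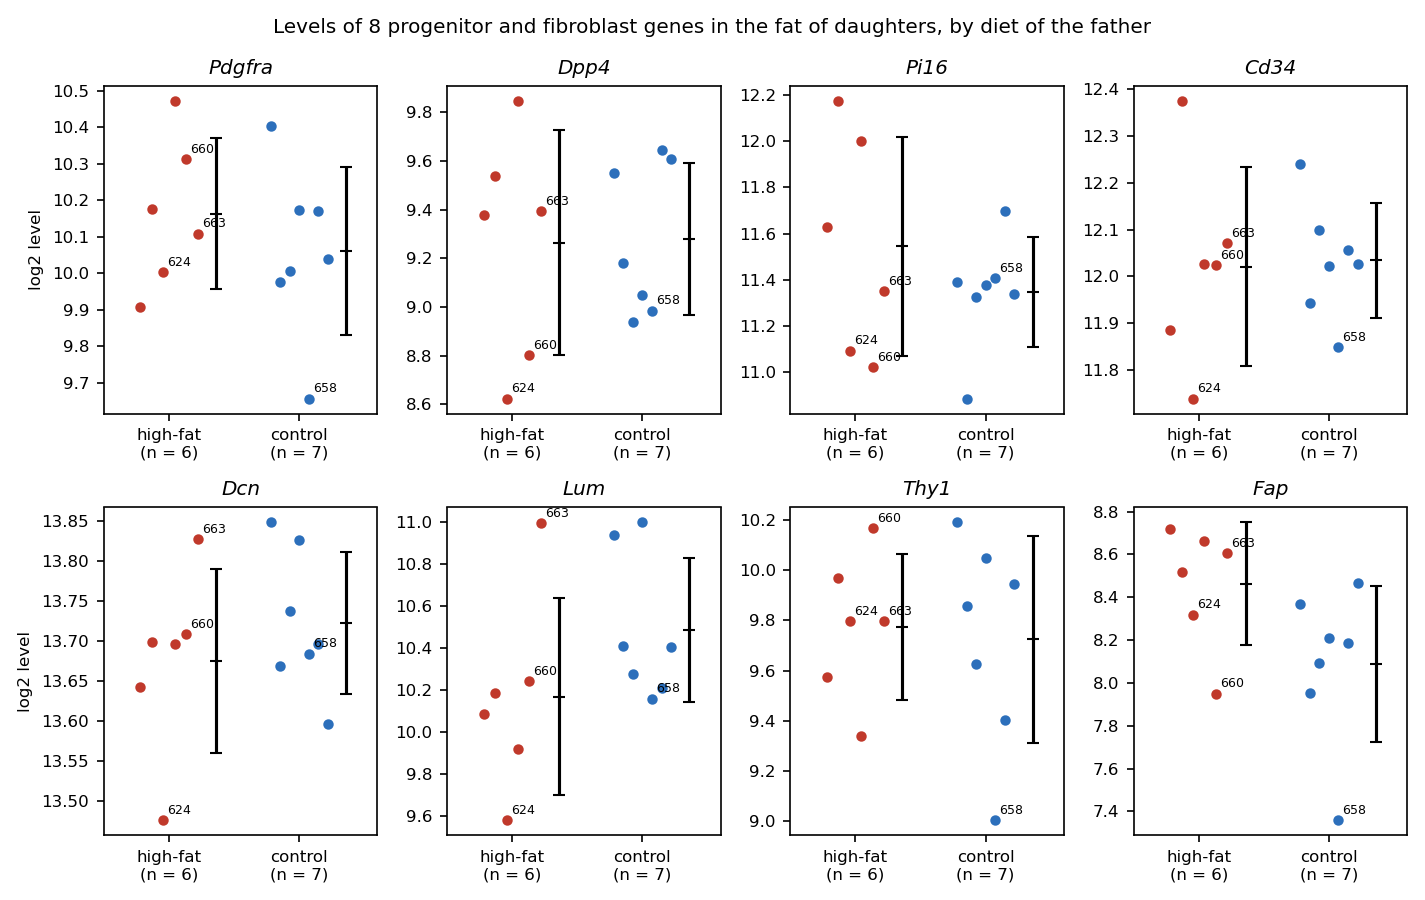
Log2 level of each gene (vertical axis, a different range in each panel) in 6 high-fat and 7 control daughters, 1 point per array, with bars for the mean and SD of each group and the numbers of 4 daughters printed. The groups overlap in every panel, control 658 is the lowest array for Pdgfra, Thy1 and Fap, and high-fat 624 is the lowest for Dpp4, Cd34, Dcn and Lum.

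Pdgfra (probe 10776459), the receptor, ran from 9.91 to 10.47 with a median of 10.14 in high-fat daughters and from 9.66 to 10.40 with a median of 10.04 in controls. Both groups covered nearly the same levels, apart from control 658 at the low end. The mean was 10.16 ± 0.21 (SD, n = 6) in high-fat and 10.06 ± 0.23 (SD, n = 7) in control daughters, a difference of 0.10 ± 0.11 (SE, limma adjusted p = 0.66) with a 95% interval from -0.14 to 0.35. The difference was 0.04 without control 658 or without high-fat 629, 0.16 without control 622 and 0.15 without high-fat 619. It was -0.02 without the 3 arrays of smallest spread, 0.0064 with array weights, 0.01 in daughters 619 to 631 and 0.20 in daughters 656 to 664.

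Dpp4 (probe 10845647), the dipeptidyl peptidase of the less committed progenitor, ran from 8.62 to 9.85 with a median of 9.39 in high-fat daughters and from 8.94 to 9.64 with a median of 9.18 in controls. High-fat daughters held both the lowest array, 624, and the highest, 629. The difference was -0.02 ± 0.19 (SE, limma adjusted p = 0.98), with an interval from -0.43 to 0.40, the widest range of differences but for Lum that these arrays leave for any of the 8. The 4 arrays with most muscle signal read 9.38 to 9.85 for Dpp4, with a median of 9.63, and the other 9 read 8.62 to 9.55, with a median of 9.05. All 4 thus lay above the median of the other 9, and the Dpp4 difference was 0.02 with the muscle level as a covariate and -0.05 without those 4 arrays.

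Pi16 (probe 10828854) ran from 11.02 to 12.17 with a median of 11.49 in high-fat daughters and from 10.89 to 11.70 with a median of 11.38 in controls. The highest 2 arrays were high-fat 620 at 12.17 and high-fat 629 at 12.00, while high-fat 660 and 624 lay near the bottom. The mean was 11.54 ± 0.47 (SD, n = 6) in high-fat and 11.35 ± 0.24 (SD, n = 7) in control daughters, a difference of 0.20 ± 0.18 (SE, limma adjusted p = 0.61). It was 0.07 when high-fat 620 was left out, 0.11 when high-fat 629 was, 0.12 when control 627 was and 0.30 when high-fat 660 was.

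Cd34 (probe 10766869) ran from 11.74 to 12.37 with a median of 12.03 in high-fat daughters and from 11.85 to 12.24 with a median of 12.03 in controls. The lowest array was high-fat 624 and the highest high-fat 620, and the SD was 0.21 in high-fat (n = 6) and 0.12 in control daughters (n = 7). The difference was -0.01 ± 0.09 (SE, limma adjusted p = 0.95), with an interval from -0.21 to 0.18. Endothelium also carries Cd34. Of its marker genes 10 of 10 had a higher mean in high-fat daughters, as did 58.0% of all genes, and 0 passed. Above the middle of the mean levels, where all 10 lie, 15.6% of genes had a lower mean. The endothelial list mean ran from 10.10 to 10.40 in high-fat and from 9.76 to 10.27 in control daughters.

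Thy1 (probe 10909407) ran from 9.34 to 10.17 with a median of 9.80 in high-fat daughters and from 9.00 to 10.19 with a median of 9.86 in controls. The means were 9.77 ± 0.29 (SD, n = 6) in high-fat and 9.73 ± 0.41 (SD, n = 7) in control daughters, a difference of 0.05 ± 0.18 (SE, limma adjusted p = 0.91). The sign turned without control 658, to -0.07, and with renewed quantile normalization, to -0.01.

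Fap (probe 10845681), the protease of activated fibroblasts, had the largest difference of the 8. It ran from 7.95 to 8.72 with a median of 8.56 in high-fat daughters and from 7.36 to 8.46 with a median of 8.19 in controls. High-fat 619, 629, 663 and 620 lay above every control, high-fat 624 lay among the upper controls, and high-fat 660 lay below all but 1 control, 658. The mean was 8.46 ± 0.29 (SD, n = 6) in high-fat and 8.09 ± 0.36 (SD, n = 7) in control daughters. The difference of 0.37 ± 0.17 (SE), a fold of 1.29 with an interval from 0.02 to 0.73 on the log2 scale, had an unadjusted p of 0.042 and an adjusted p of 0.53 in limma. The unadjusted p was above 0.05 when any one of control 627, 631 or 658 or of high-fat 619, 620, 629 or 663 was left out, with the difference between 0.25 and 0.37 in those fits.

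The Fap level moved with the spread of values of its array. Across 13 arrays, with the mean of each group removed, Fap and the standard deviation of the array had r = 0.83 (permutation p = 0.0022, adjusted p = 0.025 over 88 relations) and rho = 0.57 (permutation p = 0.047, adjusted p = 0.27). Without control 658 and high-fat 660 r was 0.25, so the centred r over 13 arrays leaned on those arrays. Within daughters 619 to 631, which hold neither of them, r was 0.75, and within 656 to 664 it was 0.91. These last values were not centred and so include the difference between the groups. With the standard deviation as a covariate the Fap difference was 0.12 ± 0.11 (SE). Without the 3 arrays of smallest spread it was 0.33 ± 0.10 (SE, unadjusted p = 0.0081, limma adjusted p = 0.50), and without control 658 alone it was 0.25 ± 0.13 (SE).

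**Figure D2:**
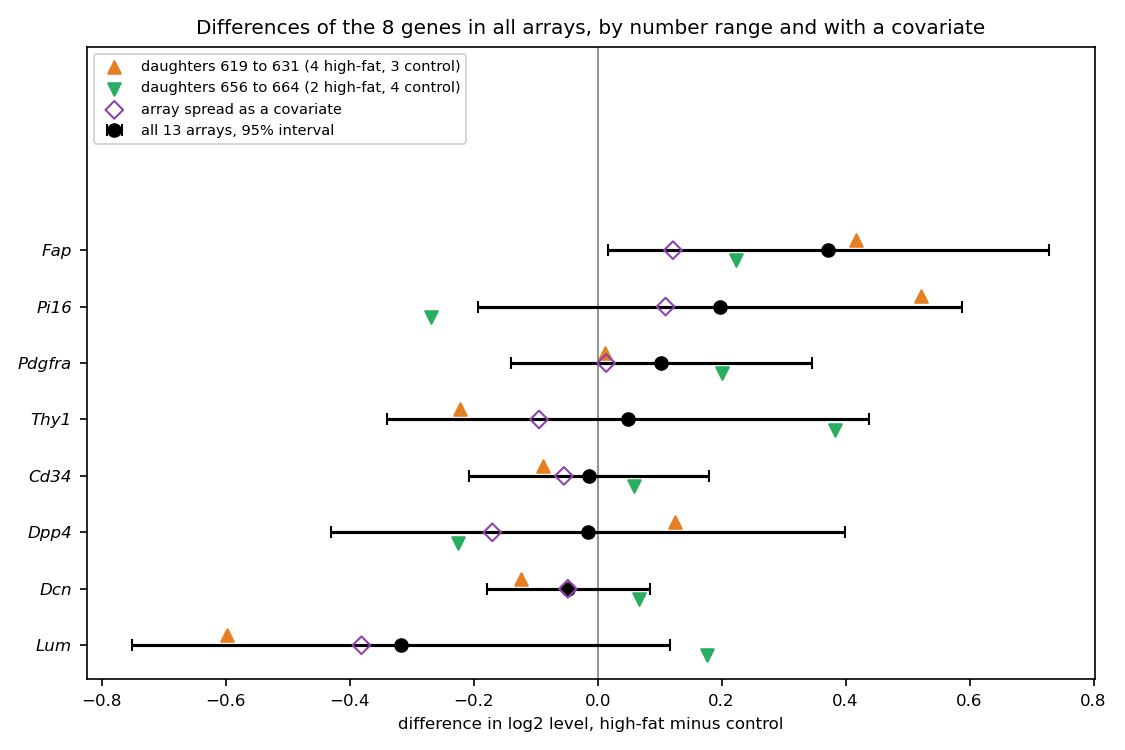
Difference in log2 level, high-fat minus control, of each gene over all 13 arrays with its 95% interval (black), within each range of daughter numbers (triangles, without intervals) and with the standard deviation of the array as a covariate (open diamonds). The interval leaves out 0 for Fap alone, before adjustment, and the triangles of Pi16, Thy1, Cd34, Dpp4, Dcn and Lum lie on opposite sides of 0.

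Decorin (Dcn, probe 10895075) was close to the top of the measured scale, at the 99.9th percentile of mean levels, and varied least. It ran from 13.48 to 13.83 with a median of 13.70 in high-fat daughters and from 13.60 to 13.85 with a median of 13.70 in controls. The difference was -0.05 ± 0.06 (SE, limma adjusted p = 0.71), with an interval from -0.18 to 0.08. It was -0.0080 without high-fat 624, -0.027 without control 622, -0.031 without control 656 and -0.078 without high-fat 663. Its SD within groups of 0.10 was the 18.8th percentile of all genes.

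Lumican (Lum, probe 10895083) had the largest lower mean of the 8. It ran from 9.58 to 11.00 with a median of 10.14 in high-fat daughters and from 10.16 to 11.00 with a median of 10.40 in controls. High-fat 624, 629 and 619 lay below every control, while high-fat 663 lay among the highest arrays. The mean was 10.17 ± 0.47 (SD, n = 6) in high-fat and 10.48 ± 0.34 (SD, n = 7) in control daughters, a difference of -0.32 ± 0.20 (SE, unadjusted p = 0.14, limma adjusted p = 0.53). It was -0.48 without high-fat 663 (unadjusted p = 0.012, limma adjusted p = 0.53) and -0.20 without high-fat 624.

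The ranges of daughter numbers gave differing values. In daughters 619 to 631 Pi16 differed by 0.52, Fap by 0.42 and Lum by -0.60, and in daughters 656 to 664 Pi16 differed by -0.27, Fap by 0.22 and Lum by 0.18, high-fat minus control. Fap and Lum had an unadjusted p under 0.05 within 619 to 631, as did 13.7% of all genes, with limma adjusted p of 0.29 for each, and none of the 8 did within 656 to 664, against 0.931% of all genes. The difference between the ranges, tested as an interaction in limma, was -0.79 ± 0.33 (SE) for Pi16 with an unadjusted p of 0.035 and an adjusted p of 0.999, and 0.77 ± 0.37 (SE) for Lum with an unadjusted p of 0.057. The other 6 genes had larger p, 0 genes of all passed the adjusted threshold for the interaction, and 3.47% had an unadjusted p under 0.05.

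The other genes of the family of Dcn and Lum also had lower means in high-fat daughters, without passing the test. Small leucine-rich proteoglycans organise collagen fibrils and bind growth factors, and all 9 further members on the array had a lower mean in high-fat daughters, as did 42.0% of all genes. Kera, Epyc and Optc were dim, below the middle of the mean levels, where a lower mean was more common than above it. None of the 9 passed the adjusted threshold, and Bgn was the only one of them with an unadjusted p under 0.05. Biglycan (Bgn), the nearest relative of decorin, had a mean of 12.67 ± 0.20 (SD, n = 6) in high-fat and 12.91 ± 0.20 (SD, n = 7) in control daughters, a difference of -0.24 ± 0.10 (SE, limma adjusted p = 0.53). Fibromodulin (Fmod), which guides collagen cross-linking, had the largest difference, -0.67 ± 0.36 (SE, limma adjusted p = 0.53), with wide spread, at 8.72 ± 0.56 (SD, n = 6) in high-fat and 9.39 ± 0.84 (SD, n = 7) in control daughters. With Dcn and Lum 11 of 11 were lower. Of the 8 among them above the middle of the mean levels 8 were lower, against 15.6% of genes at that level. So were 14 of 24 fibroblast matrix genes, all of them at that level. In daughters 619 to 631 10 of 11 were lower, against 44.1% of all genes, with a median difference of -0.14. In daughters 656 to 664 5 of 11 were, against 41.5% of all genes, with a median difference of 0.0011. Within the ranges, shares for brighter genes alone were not worked out. The count was also 11 with the 4 muscle-rich arrays left out and with the 3 arrays of smallest spread left out, with median differences of -0.10 and -0.14 and shares of lower genes over the whole table of 41.7% and 48.7%. Markers of other cells also had unequal means, and none passed. Of the mesothelial genes 8 of 8 had a lower mean in high-fat daughters, of the T cell genes 9 of 9 and of the muscle genes 11 of 12, while 11 of 12 adipocyte genes had a higher mean. No allowance for the brightness of the genes was made in these counts. With the mesothelial level as a covariate 11 of 11 proteoglycans were lower, against 43.2% of all genes. Their median difference was -0.10 with it and -0.14 without it. The part of mesothelium, T cells or adipocytes in these differences was not tested. Members of the family share arrays and are not independent of each other. The list was chosen with earlier results of these data known, so its counts describe these arrays and are not a test.

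**Figure D3:**
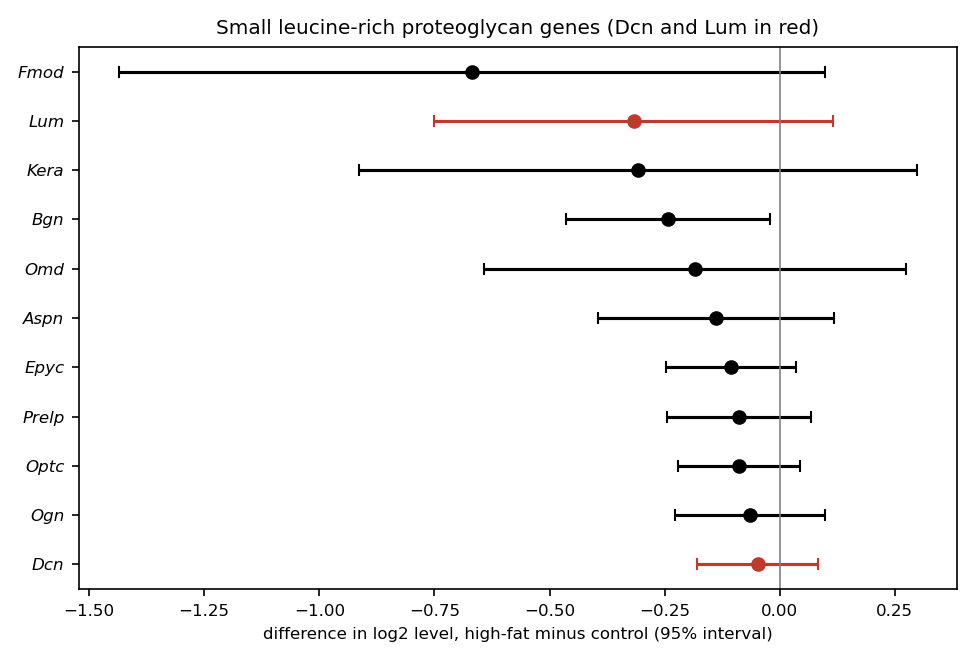
Difference in log2 level, high-fat minus control, with its 95% interval for 11 small leucine-rich proteoglycan genes over all 13 arrays, Dcn and Lum in red. All 11 means lie below 0, from -0.67 for Fmod to -0.05 for Dcn, and the interval reaches 0 for all but Bgn.

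Genes of the same stromal cells outside this family gave no call. Of 10 genes of the interstitial progenitor that Dpp4 and Pi16 mark, 8 had a higher and 2 a lower mean. Over all genes 58.0% had a higher mean. Above the middle of the mean levels, where all 10 lie, 15.6% of genes had a lower mean. Of the 10, 0 passed and 0 had an unadjusted p under 0.05. The median difference was 0.05, and the smallest p were those of the chemokine scavenger Ackr3 (-0.12 ± 0.08) and the complement regulator Cd55 (0.10 ± 0.09). Of 7 genes of the committed preadipocyte 5 were higher, against the same 58.0%, with a median of 0.08. They were led by the basement membrane collagen Col4a1 (0.15 ± 0.08) and the preadipocyte transcription factor Zfp423 (0.18 ± 0.11). Of 5 genes of the F3-positive stromal cell, which in mouse fat restrains adipocyte formation, 3 were lower, against 42.0% of all genes. Their median was -0.18. Matrix Gla protein (Mgp) differed by -0.22 ± 0.09 (SE) with an unadjusted p of 0.032, and Clec11a by -0.28 ± 0.14.

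Of 6 further PDGF genes 5 had a higher mean, as did 58.0% of all genes, with a median of 0.11 and none under an unadjusted p of 0.05. All 6 lay above the middle of the mean levels, where 15.6% of genes had a lower mean. The ligand Pdgfd differed by 0.21 ± 0.12 (SE) and the ligand Pdgfa by -0.11 ± 0.08. The partner receptor Pdgfrb differed by 0.06 ± 0.11. Of 12 mesenchymal transcription factors and surface proteins 5 were higher and 7 lower, against 42.0% of all genes with a lower mean. Their median was -0.02, and those with the smallest p were integrin beta 1 (Itgb1, 0.11 ± 0.07) and Osr2 (0.23 ± 0.15). Of 24 genes of the fibroblast matrix 10 were higher and 14 lower, with a median of -0.02. All 24 also lay above the middle of the mean levels, against the same 15.6% of genes with a lower mean. Mfap4, a microfibril protein, differed by -0.53 ± 0.22 (SE) with an unadjusted p of 0.033, and elastin (Eln) by -0.23 ± 0.12. The median over all genes was 0.03, so these list medians lie on both sides of it.

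Relatives of Dpp4 and Fap in the prolyl oligopeptidase family, named for an enzyme that cuts after proline, gave no call. Of 5 measured, 4 had a higher mean, against 58.0% of all genes, with a median of 0.12, and 1 had an unadjusted p under 0.05, against 7.96% of all genes. That was Prepl, at 9.36 ± 0.26 (SD, n = 6) in high-fat and 8.94 ± 0.30 (SD, n = 7) in control daughters, a difference of 0.43 ± 0.14 (SE, limma adjusted p = 0.53). Prep differed by 0.20 ± 0.10, and the neuronal relatives Dpp6 and Dpp10, which lack protease activity, read 5.81 and 5.32 in high-fat and 5.84 and 5.30 in control daughters.

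Across animals, after the mean of each group was removed, pairs of the 8 genes ran from r = -0.34 to r = 0.85. Of 28 pairs 25 had a positive r, the median was 0.41, and 1 pair passed an adjusted p of 0.05 over the 28. That pair was Dcn and Lum, with r = 0.85 (permutation p = 0.00028, adjusted p = 0.0078) and rho = 0.78 (permutation p = 0.0022, adjusted p = 0.062). It had r = 0.90 without high-fat 624 and control 664, the arrays farthest from the median of Dcn, and on values not centred 0.89 in daughters 619 to 631 and 0.80 in daughters 656 to 664. The 2 genes lie side by side on chromosome 7 with no protein-coding gene between them in GRCr8. The next gene of that cluster, the corneal proteoglycan Kera, did not run with Lum, with r = -0.28 over the 13 arrays, and its level was 5.70 ± 0.07 (SD, n = 6) in high-fat and 6.01 ± 0.77 (SD, n = 7) in control daughters.

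**Figure D4:**
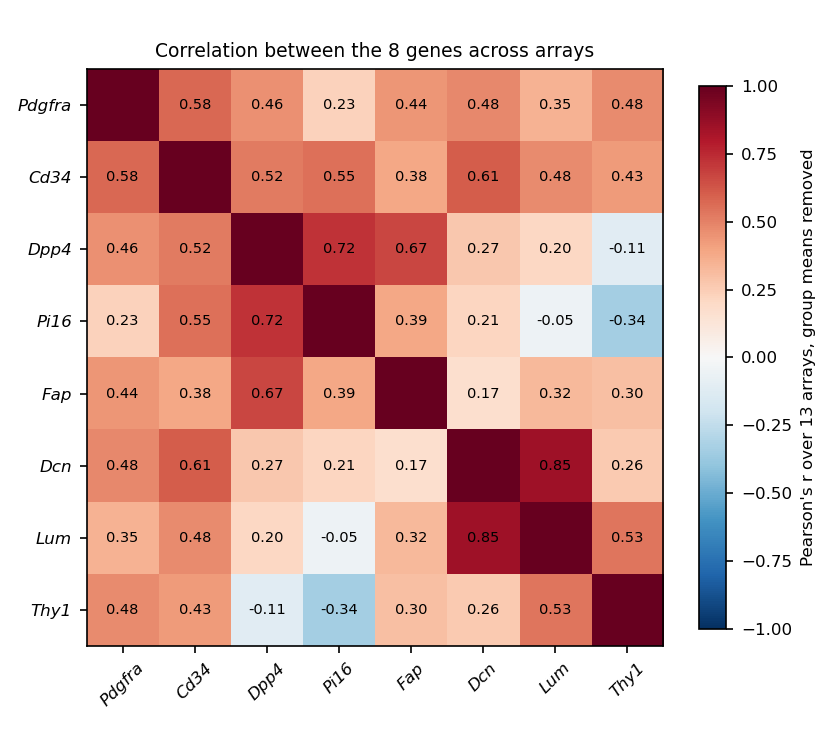
Pearson's r between the 8 genes over 13 arrays after the group means were removed (colour scale from -1 to 1, values printed). The highest value is that of Dcn and Lum, 0.85, followed by Dpp4 and Pi16, 0.72, and Dpp4 and Fap, 0.67, while Thy1 has negative values with Pi16 and Dpp4.

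Dpp4 and Pi16, the markers of the less committed progenitor, came next with r = 0.72 (permutation p = 0.0060, adjusted p = 0.084) and rho = 0.68 (permutation p = 0.013, adjusted p = 0.082), which did not pass. It was 0.54 without high-fat 624 and 660, and on values not centred 0.72 within daughters 619 to 631 and 0.69 within 656 to 664. Dpp4 and Fap, with only the glucagon gene Gcg between them on chromosome 3, had r = 0.67 (permutation p = 0.0100, adjusted p = 0.093) and rho = 0.70 (permutation p = 0.010, adjusted p = 0.082), and r = 0.61 without high-fat 624 and 660. Thy1 and Pi16 had r = -0.34 (permutation p = 0.25) and rho = -0.41 (permutation p = 0.17), a negative value that did not pass.

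Dpp4, Pi16, Cd34 and Fap moved with the interstitial progenitor list, which was added to the 88 relations after seeing the data. Whether 1 cell type lies behind this in bulk fat was not tested. The mean of the 10 interstitial progenitor genes, none of them among the 8, had r = 0.79 with Dpp4 (permutation p = 0.0012, adjusted p = 0.025 over 88 relations), 0.73 with Pi16 (permutation p = 0.0050, adjusted p = 0.044), 0.78 with Cd34 (permutation p = 0.0016, adjusted p = 0.025) and 0.79 with Fap (permutation p = 0.00098, adjusted p = 0.025). The matching rho were 0.76, 0.60, 0.76 and 0.68, with permutation p of 0.0034, 0.032, 0.0039 and 0.014 and adjusted p of 0.086, 0.22, 0.086 and 0.18, so none passed by rank. Without control 658 and high-fat 620 these r were 0.83, 0.82, 0.61 and 0.85. On values not centred they were 0.83, 0.86, 0.88 and 0.51 in daughters 619 to 631, and 0.82, 0.48, 0.78 and 0.88 in daughters 656 to 664. The other genes did not pass with this list. Pdgfra, the general marker, had r = 0.57 (permutation p = 0.040, adjusted p = 0.20), and Dcn, Lum and Thy1 had r of 0.34, 0.27 and 0.24.

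Lum and Thy1 moved with the fibroblast matrix list, which was also added after seeing the data. It shares Mfap5 with the progenitor list, and whether r differed between the lists was not tested. For Lum r was 0.77 (permutation p = 0.0019, adjusted p = 0.025) and rho 0.84 (permutation p = 0.00055, adjusted p = 0.048), and r was 0.91 without control 658 and 664. For Thy1 r was 0.78 (permutation p = 0.0019, adjusted p = 0.025) and rho 0.81 (permutation p = 0.0015, adjusted p = 0.064), and r was 0.65 without the same arrays. Within daughters 619 to 631 and 656 to 664 these r were 0.94 and 0.67 for Lum and 0.58 and 0.88 for Thy1, on values not centred.

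Thy1 and Pdgfra also moved with lists of other cells, whose part in their levels was not tested. Thy1 had r = 0.82 with the endothelial list (permutation p = 0.00073, adjusted p = 0.025), rho = 0.70 (permutation p = 0.010, adjusted p = 0.18) and r = 0.70 without control 658 and high-fat 620. With the mural cell list it had r = -0.79 (permutation p = 0.00099, adjusted p = 0.025) and rho = -0.59 (permutation p = 0.038, adjusted p = 0.24). Without control 658 and high-fat 629 r was -0.39, so the size of the centred r leaned on those arrays. Control 658 had the highest mural mean, 11.62, against 10.37 to 10.91 in high-fat and 10.57 to 10.73 in the other control daughters. Pdgfra had r = 0.74 with the macrophage list (permutation p = 0.0037, adjusted p = 0.036), rho = 0.63 (permutation p = 0.025, adjusted p = 0.22), and r = 0.51 without control 658 and high-fat 619. On values not centred, the endothelial r for Thy1 was 0.54 within daughters 619 to 631 and 0.92 within 656 to 664. On the same values and in the same order the mural r for Thy1 was -0.62 and -0.83, and the macrophage r for Pdgfra 0.70 and 0.81. Of these 88 relations 10 passed for r, and all are correlations over the same 13 arrays.

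**Figure D5:**
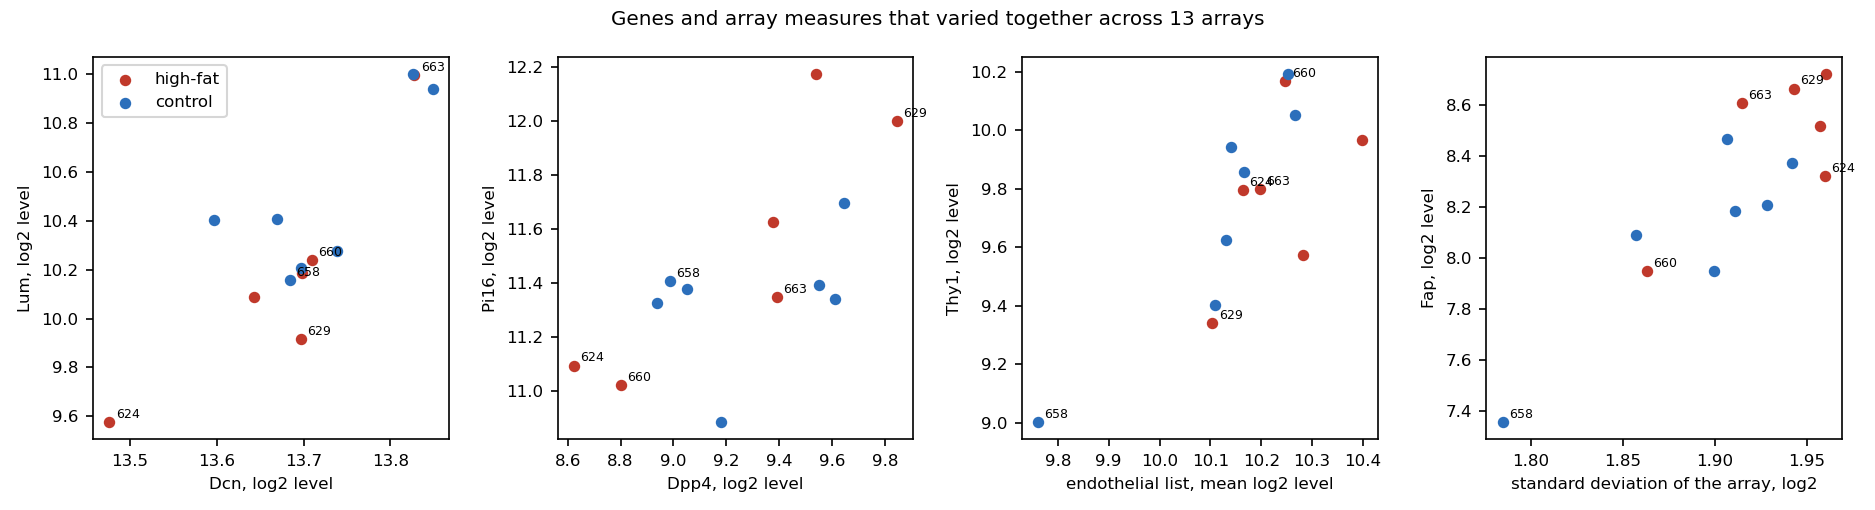
From left to right, log2 levels of Lum against Dcn, Pi16 against Dpp4, Thy1 against the mean of the endothelial list, and Fap against the standard deviation of the array, 1 point per array (red high-fat, blue control), with some daughter numbers printed. Control 658 lies at the lower left of the last 2 panels, and r without it and 1 further array is 0.70 for Thy1 and 0.25 for Fap.

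Among all other named genes, those whose values over the 13 arrays were most like each of the 8, by r after removal of the group means, differed from gene to gene. Pi16 was most like Olfml2a (r = 0.94), Scara3 (0.92) and Bmp7 (0.86), and Dpp4 was most like Plppr5 (0.88), Ace (0.86) and Bmp7 (0.86), so the growth factor gene Bmp7 was near to both. Cd34 was most like Prrx1 (0.90), Wnt2 (0.85) and Efhd1 (0.85). Bmp7, Wnt2 and Efhd1 belong to the interstitial progenitor list. Thy1 was most like Pcolce (0.94), which enhances procollagen processing, Chst11 (0.93) and Rin3 (0.92). Dcn was most like Cmtm3 (0.87), Serping1 (0.87) and Tmem174 (0.86), and Lum was most like Aldh1l2 (0.91), Lcn2 (0.86) and Nucb2 (0.86). Pdgfra was most like Nipal1 (0.85), Bst1 (0.84) and Rasl10a (0.84), and Fap was most like Ubfd1 (0.97), Alg12 (0.95) and Cops5 (0.95). These values are the highest of 14506 genes over 13 arrays and carry no test.

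The lists of other cells had these median differences, high-fat minus control: 0.13 for 12 adipocyte genes, 0.00 for 6 brown and beige fat genes, 0.10 for the endothelial list, -0.22 for 8 mural cell genes, -0.33 for 8 mesothelial genes, -0.13 for the muscle list, -0.17 for 9 T cell genes, 0.01 for 10 macrophage genes and 0.04 for 6 Schwann cell and nerve genes. None of their genes passed. At an unadjusted p under 0.05, against 7.96% of all genes, 5 of 12 adipocyte genes were higher: the fatty acid carrier Fabp4 (0.20 ± 0.06, SE), the lipase Lipe (0.16 ± 0.05), Plin1 (0.18 ± 0.06), the activin receptor Acvr1c (0.20 ± 0.09) and adipsin (Cfd, 0.23 ± 0.11). The mean of the adipocyte list ran from 11.91 to 12.10 in high-fat and from 11.76 to 11.91 in control daughters. Lower at that threshold were the mesothelial genes Krt18 (-0.27 ± 0.12) and Bnc1 (-0.37 ± 0.17), the T cell gene Cd3d (-0.18 ± 0.07) and, in the brown and beige list, the elongase Elovl3 (-0.22 ± 0.09). The T cell list mean ran from 6.80 to 7.18 in high-fat and from 6.89 to 7.61 in control daughters. Mesothelium, the cover of visceral fat, had a list mean from 7.33 to 8.20 in high-fat and from 7.33 to 8.54 in control daughters, and with it as a covariate Fap differed by 0.41 and Lum by -0.28. Its correlations with the 8 genes did not pass, and its part in their levels was not tested beyond that.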

How the data were processed

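Per the submitters' processing notes, the authors made the deposited log2 values with RMA and Partek, with no version or order stated. RMA pulls arrays toward a common distribution, so a difference in overall spread that remains can move bright and dim genes apart. Values ran from 3.24 to 14.54 over 29214 probes, background per probe was not assessed, and precision is limited by how many arrays there are. Of the probes 15310 had 1 gene symbol, 323 several, and 13581 were not listed. The brightest probe of each symbol gave 14506 genes, with no filter on dim ones.

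Groups were compared with limma 3.58.1 in R 4.3.3 (two-sided, default eBayes, no covariate). Intervals are 95% intervals from the same fit. Correlations used 100000 permutations, two-sided, on values centred on group means, in families of 28 and 88. The array spread and 3 stromal lists were added to the second family after seeing the data. Named genes were the 8, the 2 of smallest p in each stromal list, the first markers of lists of other cells, and the 3 genes most alike. Kera, Pdgfrb, Dpp6, Dpp10 and the genes of other cells with an unadjusted p under 0.05 were named after their values were seen. The 8 genes and all lists were chosen with earlier results of these data known. In 3 simulated sets, limma on 14506 genes recovered 75.3% of genes changed by 0.5 log2 units and 96.3% of those changed by 1. The changed genes were drawn at random, and the simulated noise was independent between genes, without the shared differences between arrays. Fap, Thy1, Pi16, Dpp4 and Lum had SDs within groups at the 92.6th to the 96th percentile of all genes. Recovery for genes that vary so much was not tested. Sequences came from RefSeq promoters. Other settings were renewed quantile normalization, median centring, brighter genes alone, probe means, trended or unmoderated variance, array weights, 4 covariates, subsets of arrays and each array left out.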

Additional observations from a re-analysis of the deposited data

How the results depend on the processing

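No gene passed an adjusted p of 0.05 under any setting tried or at an adjusted p of 0.1, by limma or by the unmoderated linear model, which had 1155 and 1075 genes under an unadjusted p of 0.05. The causes of the changes given here were not tested. The unadjusted count was 407 with array standard deviation as a covariate, 645 with mesothelium, 611 with number range, 661 among genes above the middle level, 2179 with array weights, 1990 in daughters 619 to 631, 135 in 656 to 664 and 550 with the 4 muscle-rich arrays left out. It ran from 508 (without high-fat 624) to 2508 (without high-fat 660) when 1 array was left out. Of the 8 genes, 1 had an unadjusted p under 0.05, 2 in daughters 619 to 631, and 0 in daughters 656 to 664, with array standard deviation, mesothelium or number range as a covariate, with renewed quantile normalization, in the unmoderated model and without the muscle arrays. The count ran from 0 to 1 with 1 array left out, and was 0 without control 627, 631 or 658 and without high-fat 619, 620 or 629. Without high-fat 663 it was Lum and not Fap. Of the proteoglycans, 5 rather than 11 were lower in daughters 656 to 664, against 41.5% of all genes, and the count stayed at 11 with each array left out. Without centring 1 pair correlated, as with it.

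Signs turned as follows, high-fat minus control. In daughters 656 to 664 alone they were 0.059 for Cd34, 0.068 for Dcn, 0.18 for Lum and -0.27 for Pi16. Cd34 was 0.015 with array weights, 0.0087 with median centring and 0.022 without the muscle arrays, and -0.084 to 0.043 with 1 array left out. Dpp4 was 0.13 in daughters 619 to 631, 0.0067 with median centring, 0.10 with mesothelium and 0.024 with muscle as a covariate, and -0.13 to 0.11 with 1 array left out. Thy1 was -0.095 with array standard deviation, -0.078 with array weights, -0.22 in daughters 619 to 631, -0.029 with mesothelium, -0.011 with renewed quantile normalization and -0.19 without the 3 arrays of smallest spread, a setting chosen after seeing the data, and -0.071 to 0.14 with 1 array left out. In that setting Pdgfra was -0.020. Fap was higher in each setting, from 0.12 to 0.47. No paired analysis was possible because the groups share no replicate numbers.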
